A study of Mus musculus with 18 samples.

Results

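The regions described here are stretches of open chromatin at the ends of protein-coding genes that were listed in one treatment arm and not in the other in CD24low cells of the mouse lung. CD24low peaks sharing 1 bp or more were joined. A merged region was called G9ai-only when both G9ai libraries had a peak in it and no vehicle library did, and vehicle-only in the opposite case. Those lying 1000 bp or less from an end of a gene in the mm10 RefSeq table were kept. Of 9969 merged regions, 7172 were G9ai-only and 2500 vehicle-only. Within 1000 bp of a gene end lay 1213 of the G9ai-only regions (16.9%) and 616 of the vehicle-only regions (24.6%), 1829 regions in all.

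ATAC-seq marks open chromatin with a transposase that cuts accessible DNA and tags it for sequencing. The study treated adult C57BL/6 mice, 6 to 12 weeks old, with an inhibitor of the histone methyltransferase G9a (G9ai) or with vehicle, 3 mice per arm by the design text. Lung cells that lacked CD31 and CD45 and carried Epcam and Sca-1 were sorted by CD24 into CD24neg, CD24low and CD24high, and 10000 cells went into each library. The regions rest on 4 CD24low libraries, G9ai replicates 2 and 3 and vehicle replicates 2 and 3, and were looked up in 6 libraries of the other populations; the remaining samples were not analysed here. The inhibitor, its dose and the length of treatment are not named in the labels. Peak names of the same replicate number share a library series across populations, and whether those populations came from 1 mouse is not stated.

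G9a, encoded by Ehmt2, adds methyl groups to lysine 9 of histone H3, a mark of silent chromatin. Active gene starts are accessible because promoters are kept largely free of nucleosomes where the transcription machinery binds, and many promoters of widely active genes lie in stretches rich in CpG. The lung airway epithelium holds secretory club cells, ciliated cells and basal cells, and the alveoli hold type 1 and type 2 cells.

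The 4 CD24low lists held 7379 and 7361 peaks in G9ai replicates 2 and 3, and 2558 and 2552 peaks in vehicle replicates 2 and 3. They were treatment-specific lists as deposited: 18 of the 9969 merged regions had peaks in both arms and 279 had a peak in 1 library of 1 arm. Agreement within an arm and absence from the other arm were therefore set before deposit, a gene without a listed region may be open in both arms, and replicate lists agree more closely than separate mice would. No read counts come with the lists, so depth is unknown. Each member's score is the authors' peak score, used as a percentile within its own list.

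The sequences below are the promoter stretches covered by a region of 8 genes whose results follow, read 5′ to 3′ on the strand of the gene from RefSeq windows of GRCm38.p6; each ends at the gene start except that of Scgb3a1, whose region stops short of it. Hey2 and Sde2 carry the highest-scoring region of each side among genes with a known strand; the others stand for chromatin (Cbx8), translation (Eif3g), secretory (Scgb3a1), metabolic (Ppa1), mitochondrial (Mrps18b) and signalling (Smad5) genes. Capitals mark matches on either strand to 12 motifs, whose letters are given with their shares in promoter windows. In these stretches they are the GC box of Sp and Klf proteins, the CCAAT box of NF-Y, the E-box of bHLH proteins, the CRE of CREB proteins and the sites of ETS, NFI and NRF1 proteins. The G9ai-only stretches lie at chr10:30842784-30843033 (Hey2), chr11:119040914-119041163 (Cbx8), chr9:20898591-20898733 (Eif3g) and chr11:49663345-49663576 (Scgb3a1), and the vehicle-only stretches at chr1:180850901-180851150 (Sde2), chr10:61648406-61648620 (Ppa1), chr17:35916441-35916504 (Mrps18b) and chr13:56702882-56703009 (Smad5). The Hey2, Cbx8, Eif3g and Mrps18b genes, and no others of these, are on the minus strand.
Hey2: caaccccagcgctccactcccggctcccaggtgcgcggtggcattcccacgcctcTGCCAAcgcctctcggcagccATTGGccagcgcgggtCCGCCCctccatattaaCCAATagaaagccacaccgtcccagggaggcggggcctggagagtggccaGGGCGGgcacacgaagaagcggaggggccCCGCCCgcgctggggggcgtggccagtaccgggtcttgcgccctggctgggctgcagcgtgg
Cbx8: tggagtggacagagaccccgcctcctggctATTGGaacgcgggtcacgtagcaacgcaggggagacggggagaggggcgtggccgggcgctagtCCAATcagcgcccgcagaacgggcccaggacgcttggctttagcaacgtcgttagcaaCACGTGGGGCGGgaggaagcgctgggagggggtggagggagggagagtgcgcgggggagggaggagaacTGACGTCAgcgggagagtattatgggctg
Eif3g: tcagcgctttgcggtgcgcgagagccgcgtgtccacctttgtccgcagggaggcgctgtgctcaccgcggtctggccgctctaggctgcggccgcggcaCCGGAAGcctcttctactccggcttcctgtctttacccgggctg
Scgb3a1: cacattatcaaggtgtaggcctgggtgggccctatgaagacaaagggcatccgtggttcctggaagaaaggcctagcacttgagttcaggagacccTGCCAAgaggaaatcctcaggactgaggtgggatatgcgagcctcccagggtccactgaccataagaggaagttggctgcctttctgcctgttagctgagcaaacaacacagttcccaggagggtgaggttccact
Sde2: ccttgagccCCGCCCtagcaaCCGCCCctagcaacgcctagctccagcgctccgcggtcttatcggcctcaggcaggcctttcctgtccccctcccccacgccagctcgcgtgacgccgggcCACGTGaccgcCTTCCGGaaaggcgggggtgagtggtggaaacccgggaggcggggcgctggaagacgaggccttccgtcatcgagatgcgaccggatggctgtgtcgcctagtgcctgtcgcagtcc
Ppa1: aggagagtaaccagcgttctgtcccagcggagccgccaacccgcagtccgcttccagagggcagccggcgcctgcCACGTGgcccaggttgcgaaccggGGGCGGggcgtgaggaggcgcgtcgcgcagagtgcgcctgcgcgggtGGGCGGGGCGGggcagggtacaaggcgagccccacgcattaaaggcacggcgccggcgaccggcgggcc
Mrps18b: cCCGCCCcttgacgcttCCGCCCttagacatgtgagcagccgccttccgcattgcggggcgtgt
Smad5: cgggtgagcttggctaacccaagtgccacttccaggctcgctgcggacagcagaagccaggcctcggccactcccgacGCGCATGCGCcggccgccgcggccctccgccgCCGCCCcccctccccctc
The Hey2 stretch has 22 CpG in 250 bases and the Sde2 stretch 26 in 250. The Scgb3a1 stretch has 2 in 232 bases. The G9ai-only members thus include both CpG-rich and CpG-poor promoters.

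The first question was where along genes the regions lie. A smaller part of the G9ai lists than of the vehicle lists lay at gene ends. The share of listed peaks within 1000 bp of a gene end was 16.95% and 16.87% in G9ai replicates 2 and 3 and 24.28% and 24.65% in vehicle replicates 2 and 3. The means were 16.9% ± 0.0571 with G9ai and 24.5% ± 0.262 with vehicle (SD, n = 2 each), a difference of -7.55 percentage points. The replicate lists of an arm are nearly the same regions by their making, so these SDs and the separation of the arms are no replicate support. The exact two-sided permutation p of 0.333, the smallest that 2 libraries against 2 allow, is for the same reason not read as a test, and none is given for the shares that follow. As counts of merged regions, the shares were 16.9% (95% Wilson interval 16.06 to 17.80, counting error only) and 24.6% (22.99 to 26.37). The vehicle lists were the shorter ones, and in absolute number more gene-end regions were G9ai-only.

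**Figure D1:**
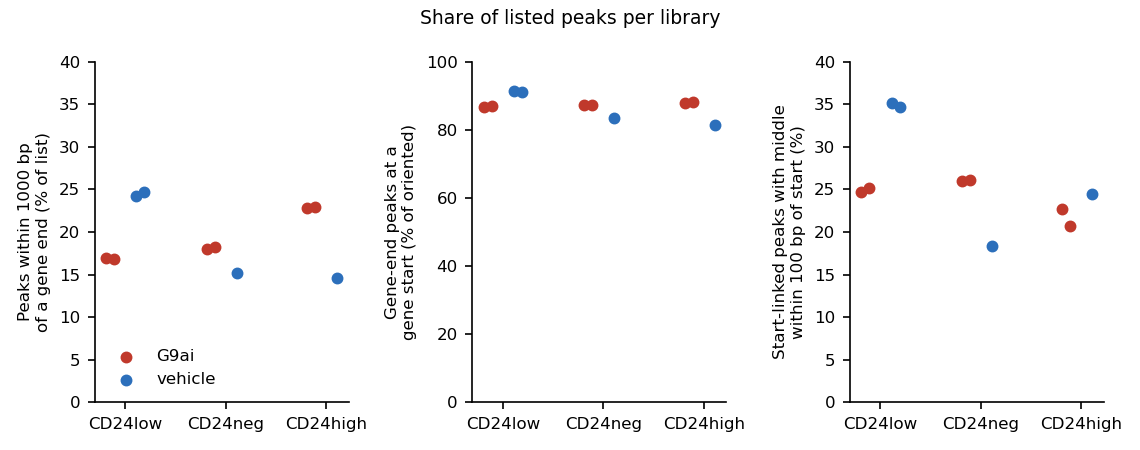
Share of listed peaks per library (points) in 3 populations, with G9ai in red and vehicle in blue. The panels give peaks within 1000 bp of a gene end (% of the list) and gene-end peaks at a gene start (% of those placed at any start or only at far ends). The last panel gives start-linked peaks with their middle within 100 bp of the start (%). In CD24low, the vehicle points lie above the G9ai points in each panel; points of 1 arm come from nearly the same regions.

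Most members lay at the start of a gene. A region near any known start was counted as at a start, even if it also lay at a far end or at a gene without a strand. It was counted as far-end only where every gene end in the window was a known far end, so the rule favours starts. Of the G9ai-only members on genes with a known strand, 816 of 942 (86.6%) were at a start, and of the vehicle-only members 442 of 483 (91.5%); another 271 and 133 lay on genes without a strand in the tables. Per library the start share was 86.7% and 86.8% in the G9ai lists and 91.4% and 91.1% in the vehicle lists. The means differed by -4.50 percentage points. Far-end regions numbered 126 with G9ai and 41 with vehicle. They include a G9ai-only region 12 bp from the far end of Tomm40, the channel of the outer mitochondrial membrane, and one across the far end of Scnn1b, a subunit of the epithelial sodium channel.

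At gene starts, vehicle-only members were concentrated close to the start, and G9ai-only members reached farther upstream. The middle of the region lay a median of 51 bp into the gene on the G9ai side (interquartile range -180 to 442 bp, 898 region-gene pairs) and 80 bp into the gene on the vehicle side (-44 to 470 bp, 477 pairs). Within 100 bp of the start lay 25.5% of the G9ai-only and 35.2% of the vehicle-only pairs. More than 250 bp upstream lay 23.1% and 13.2%. More than 250 bp into the gene the shares were close, 37.9% and 39.2%. Per library, the share of start-linked peaks with a middle within 100 bp was 24.7% and 25.1% with G9ai and 35.1% and 34.7% with vehicle. The means differed by -9.99 percentage points; this measure was chosen after the positions were seen.

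**Figure D2:**
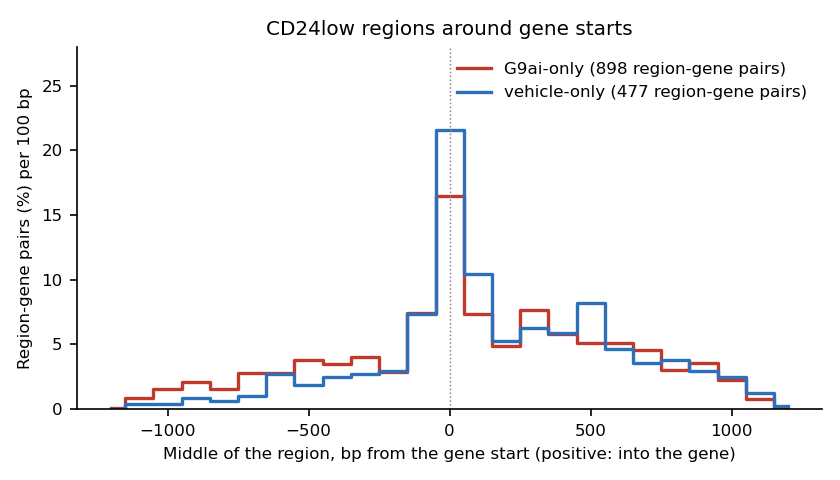
Position of the region's middle from the gene start in bp (positive into the gene), as the percentage of region-gene pairs per 100 bp bin, for 898 G9ai-only (red) and 477 vehicle-only (blue) pairs. The vehicle-only line is higher at the start and the G9ai-only line is higher more than 250 bp upstream (23.1% against 13.2% of pairs).

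The regions were short. The median width was 196 bp for G9ai-only members and 169 bp for vehicle-only members, and 214 and 167 bp for regions of the same sides away from gene ends. An end itself was covered by 353 G9ai-only members (29.1%) and 197 vehicle-only members (32.0%). In the last 100 bp inside the 1000 bp window lay 42 G9ai-only regions, and 38 lay in the 100 bp just outside it; for vehicle-only regions these were 19 and 23. The farthest members were at 998 and 994 bp, and the nearest regions left out at 1004 and 1003 bp. Scores differed between replicates by a median of 22.9 percentile points on the G9ai side and 27.1 on the vehicle side, so the order of members by score is loose.

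The members lay at 1929 genes. On the G9ai side, 1322 genes had a region, 6.04% of the 21887 protein-coding genes of the table, and on the vehicle side 679 genes did, 3.1%. Both kinds were present at 72 genes (0.329%). Of all gene entries on either side, 66.1% were G9ai. A list of genes with 66.1% of its entries on the G9ai side is therefore like the whole, and list counts are read against the 6.04% and 3.1%. The gene groups are symbol lists, 37 for functions and 15 for cell types and gene classes, and no test was made on them. Genes share regions: 186 G9ai-only (15.3%) and 73 vehicle-only members (11.9%) lay at the ends of 2 or more genes, and 80 and 32 members lay between divergent starts.

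The highest-scoring G9ai-only members lay at Pdcl3, a phosducin-like protein gene, and Hey2. The region across the start of Hey2, a repressor in the Notch pathway, at chr10:30842698-30843438, ranked at percentile 99.98 in G9ai replicate 2 and 99.87 in replicate 3, and neither vehicle list had a peak there. A region of 528 bp on chromosome X covered the divergent starts of Pqbp1, a splicing-linked protein, and Timm17b, a subunit of the inner mitochondrial import channel, at percentiles 99.95 and 99.88. It was also listed in both CD24high G9ai libraries. The other high-scoring genes of this side were Fuca2 (a fucosidase), Usp53, Rbx1 (the RING subunit of cullin ubiquitin ligases), Psmd3 (a proteasome lid subunit), Nqo2 (a quinone reductase) and Rprd1a (which binds the tail of RNA polymerase II). The lowest percentile of these regions in either G9ai list was 99.34, at Psmd3 in replicate 3. The Pdcl3 region was 932 bp wide and the Usp53 region 890 bp.

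On the vehicle side the highest-scoring member covered the start of Sde2, a replication and splicing factor, at chr1:180850668-180851174. It ranked at percentile 99.94 in vehicle replicate 2 and 99.98 in replicate 3. A region of 400 bp on chromosome 8 covered the neighbouring ends of Cox4i1 (respiratory complex IV) and Emc8 (the membrane protein insertion complex of the endoplasmic reticulum) at percentiles 99.75 and 99.78. Others among the highest were Erlin2 (a protein of the endoplasmic reticulum membrane), Ppa1 (inorganic pyrophosphatase), Hacd3 (a dehydratase of long-chain fatty acid synthesis), Stard7 (a phosphatidylcholine carrier) and the neighbours Cct7 (a chaperonin subunit) and Pradc1. Ppa1 ranked at 99.67 and 99.43. Cct7 and Pradc1 share a region at 99.00 in replicate 2 and 94.65 in replicate 3, the widest gap between replicates among these genes.

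Of the lists of protein synthesis and RNA handling, several had a larger G9ai part than the 66.1% of all genes, and others were at it. Translation factors had 8 of 73 genes on the G9ai side and 2 on the vehicle side, tRNA synthetases and modifying enzymes 5 and 1 of 63, splicing and RNA-binding genes 17 and 5 of 190, and RNA polymerases with their general factors 10 and 3 of 117. The Eif3g region, at a subunit of the initiation factor that binds the small ribosomal subunit, covered the start at percentiles 92.1 and 98.6. On the vehicle side, the Eif3d region ranked at 60.9 and 1.00 and the Eif5 region at 96.3 and 54.7. Polr2a, the catalytic subunit of RNA polymerase II, had 2 vehicle-only regions. RNA decay and processing genes, at 6 and 3 of 70, had a G9ai part of 66.7%, close to that of all genes. The cytosolic ribosome had the same part, at 4 and 2 of 82 genes, below the shares of all genes on both sides. In the higher-scoring 50% of each list the splicing genes were on the vehicle side of the whole, by -3.94 percentage points of G9ai part, against 11.2 in the full lists.

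Within the RNA-binding list, the antiviral RNA sensors and related helicases Ddx58, Dhx58 and Ddx60 all had G9ai-only regions, a set chosen after its values were seen. The Ddx60 region covered the start at percentiles 76.0 and 76.1. Ddx58, which encodes RIG-I, had 2 regions, the better one across the start at percentiles 80.6 and 37.1. Rnf213, another gene known to be interferon-induced, had 2 G9ai-only regions, the better one at percentiles 91.5 and 93.1. Ifit2, another such gene, had a vehicle-only region, at percentiles 10.5 and 93.9. No list of interferon genes was fixed, so these are single genes. Cytokine and immune genes as a list were at 24 and 9 of 496, below all genes on both sides. They include the cytokine gene Il6, with a G9ai-only region upstream of its start at percentiles 83.0 and 77.2, and Tnfsf10, which encodes TRAIL.

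Protein turnover and traffic held regions of both sides. Vesicle and membrane traffic genes had 29 and 11 of 323, with Vps8, a tethering factor of endosomes, at percentiles 99.2 and 99.7 on the G9ai side. Proteasome genes had 6 and 2 of 51. The G9ai-only regions lay at Psmd3, Psmc5 and the assembly chaperone genes Psmg3 and Psmg4 among others, and the vehicle-only regions at Psmd1 and Psmd11, which encode a base and a lid subunit of the same particle. The ubiquitin and SUMO list had 31 and 16 of 426 (66.0% on the G9ai side), the share of all genes. Autophagy and lysosome genes were at 6 and 2 of 74.

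Among mitochondrial genes, the import and membrane list had a larger G9ai part than all genes, on few genes and not all of them for import. Import and membrane genes had 6 and 1 of 40, among them Timm17b, Tomm40, Chchd2 and Opa1, the fusion GTPase of the inner membrane, which had 2 regions. The vehicle-only region of this list was at Timm8a1, at percentiles 36.2 and 19.5. The difference of the list from all genes was 19.6 percentage points of G9ai part, and 36.1 in the higher-scoring 50% of each list, where 2 of its genes are left. The mitochondrial ribosome had 7 and 4 of 78 and the respiratory chain 5 and 3 of 98. The Mrps18b region on the vehicle side covered the start at percentiles 95.8 and 88.1 and lay 8 bp from the start of Ppp1r10. On the G9ai side, Mrpl38 ranked at 99.7 and 76.1.

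Chromatin regulators and chaperones had a lower G9ai part than the whole. Chromatin regulators had 18 genes on the G9ai side and 16 on the vehicle side of 202, that is 8.91% and 7.92% against 6.04% and 3.1%. The G9ai-only set holds Cbx8, a Polycomb reader, with a region across its start at percentiles 98.5 and 99.8, Asxl2, and the H3K36 demethylase gene Kdm2b. The vehicle-only set holds the H3K9 demethylase gene Kdm3b (percentiles 96.5 and 96.3), Kmt2e and Smarcal1. Kmt2a, Phf21a and Setd7 are among those with regions of both sides. Chaperones had 9 and 8 of 108. Hspa1a and Hspa1l, the inducible Hsp70 gene and its neighbour, share 2 G9ai-only regions between them, and the chaperonin genes Cct7 and Cct2 had vehicle-only regions. Nuclear pore and transport genes had 7 and 5 of 57, of which 1 vehicle entry, Nupr1, was caught by its symbol and is a stress-response gene, not a pore gene. Without it the G9ai part is 63.6%, -2.43 points from all genes.

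**Figure D3:**
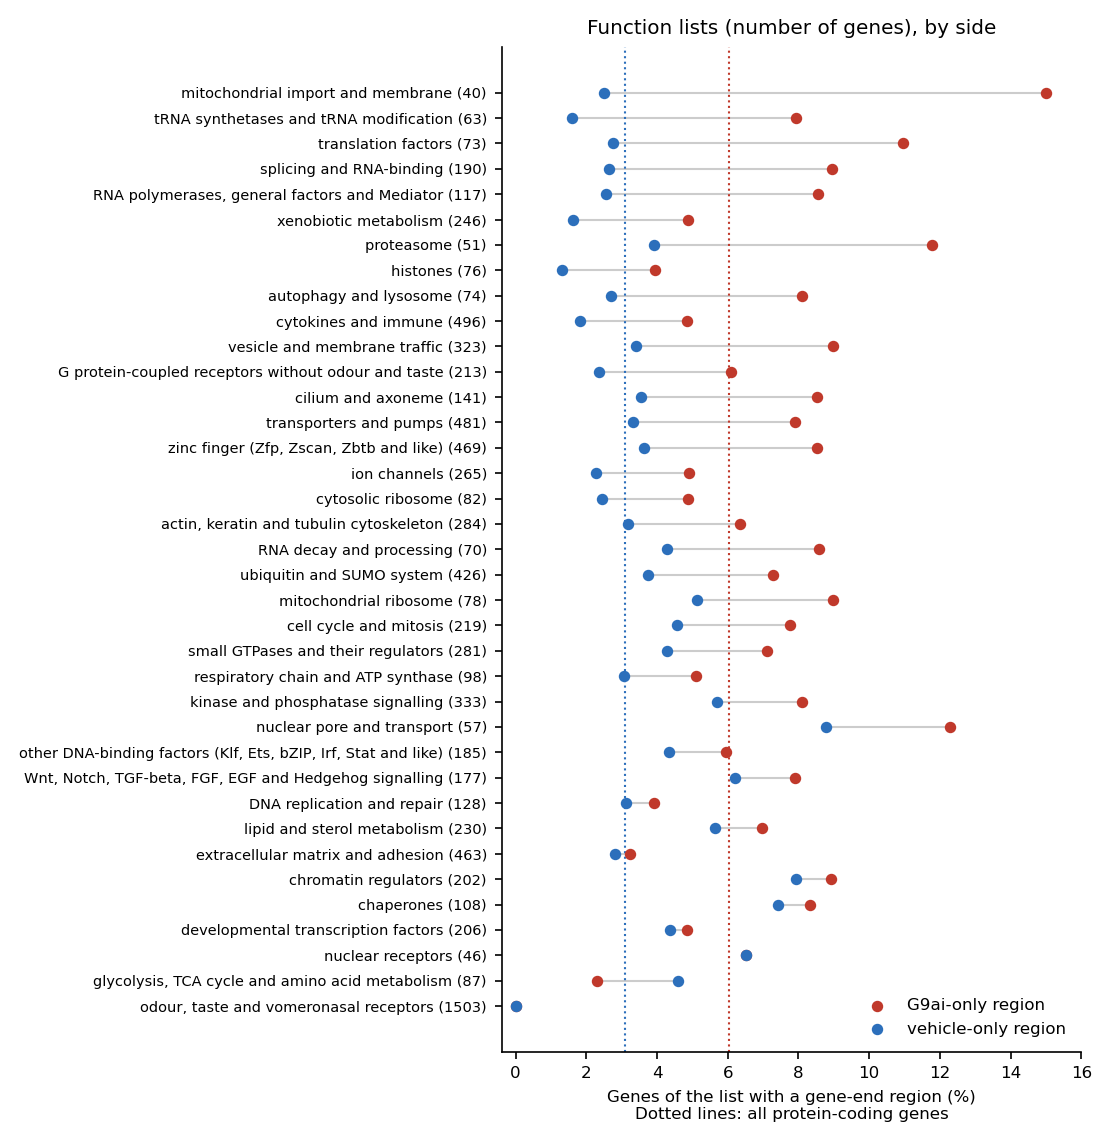
Percentage of the genes of each of 37 function lists with a G9ai-only (red) or vehicle-only (blue) region at a gene end; the number of genes is in brackets and dotted lines give all protein-coding genes (6.04% and 3.1%). Lists are ordered by the G9ai part of their entries; nuclear receptors (3 and 3 of 46) and sensory receptors (0 and 0 of 1503) have both points at the same place.

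The lists of transcription factors differed in their counts, without a test between them. Zinc finger genes had 40 and 17 of 469, the largest number among them, led on the G9ai side by Zfp113 (percentiles 97.7 and 99.8). Their G9ai part was 4.11 points above that of all genes, and -5.12 points from it in the higher-scoring 50% of each list. Developmental factors had 10 and 9 of 206, with Hey2, Dlx5, Sox13 and Tbx6 on the G9ai side and Foxc2, Foxi3, Nkx2-6 and Foxa1 on the vehicle side. Nuclear receptors had 3 and 3 of 46. Among them Nr1d1, a repressor of the circadian clock, and Ppara had G9ai-only regions, Nr2f6 had a vehicle-only region, and Vdr, the vitamin D receptor gene, had both. Other DNA-binding families had 11 and 8 of 185, among them Atf5, Atf6 and Creb5 with G9ai and Fosb, Bach2 and Irf4 with vehicle. Nfkbia, listed there by its symbol, encodes an inhibitor of NF-kappaB and had a vehicle-only region at percentiles 92.4 and 82.0.

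Signalling genes had a larger vehicle part than the whole. Kinase and phosphatase genes had 27 and 19 of 333, with Map3k8 and the phosphatase gene Dusp10 on the G9ai side and Prkci, Prkacb and Mapk3, which encodes ERK1, on the vehicle side. The difference of this list from all genes, -7.37 percentage points of G9ai part, was -27.1 in the higher-scoring 50% of each list and -0.74 with a window of 500 bp. The Wnt, Notch, TGF-beta, FGF, EGF and Hedgehog list had 14 and 11 of 177. The ligand gene Tgfb3 and the signal carrier gene Smad3 had G9ai-only regions. The carrier genes Smad2 and Smad5 had vehicle-only regions, as did the receptor gene Bmpr1a and Smo, the signal transducer of Hedgehog. Smad carriers were thus on both sides, and a split between branches of the pathway was not tested on these few genes. The Smad5 region covered the start at percentiles 68.9 and 74.9, and the Bmpr1a region ranked at 98.4 and 61.6. Small GTPases and their regulators had 20 and 12 of 281.

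Genes of the cell surface and of metabolism differed in their counts. Transporters had 38 and 16 of 481 and ion channels 13 and 6 of 265; the latter count includes Trpc4ap, caught by its symbol. Scnn1b and Gabrp, whose regions ranked at 90.2 and 90.1 and at 99.9 and 64.4, were on the G9ai side. Extracellular matrix and adhesion genes had 15 and 13 of 463, fewer than all genes on the G9ai side (3.24% against 6.04%). No odour, taste or vomeronasal receptor gene of 1503 had a region on either side; without them, 6.49% and 3.33% of genes had one. Xenobiotic metabolism had 12 and 4 of 246, led by Nqo2 and Cyp4f17. Glycolysis, TCA cycle and amino acid metabolism had 2 and 4 of 87, the lowest G9ai part (33.3%) of the lists with at least 5 entries. Its vehicle-only genes were Bckdha, Ogdh, Phgdh and Pgam2, and its G9ai-only genes Pfkfb1 and Pygb. Lipid and sterol metabolism had 16 and 13 of 230. In the higher-scoring 50% of each list it was at 1 and 5, a difference from all genes of -47.3 percentage points of G9ai part against -10.9 in the full lists. Erlin2, Hacd3, Stard7 and the cholesterol exporter gene Npc1 had vehicle-only regions.

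Cytoskeletal genes had 18 and 9 of 284, with Cfl1, the actin-severing cofilin, across its start at percentiles 98.3 and 97.2 on the G9ai side. Cilium and axoneme genes had 12 and 5 of 141. Cell cycle genes had 17 and 10 of 219, with Ccnb1 on the G9ai side and Ccnd1 on the vehicle side. DNA replication and repair genes were at 5 and 4 of 128 and histones at 3 and 1 of 76. Across the 35 function lists with at least 5 entries, the G9ai part ran from 33.3% to 85.7% with a median of 66.7%, and 17 lists had a lower G9ai part than all genes. With so few genes per list, 1 or 2 genes move a share by several points.

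Genes that mark 3 kinds of lung cell had regions on both sides, in short lists. The shares with a G9ai-only and a vehicle-only region were 16% and 12% for club cells and 10.3% and 10.3% for multiciliated cells. For alveolar type 2 cells they were 9.09% and 13.6%, beside 6.04% and 3.1% of all genes, and were not tested. Of 25 club cell genes, 4 had a G9ai-only region at an end (Scgb1a1, Scgb3a1, Scgb3a2 and Cyp2f2) and 3 a vehicle-only one (Chad, Nupr1 and Sec14l3). Scgb1a1, the secretoglobin that defines club cells, ranked at percentiles 98.2 and 77.2, Scgb3a1 at 80.6 and 69.3, Scgb3a2 at 89.7 and 76.1 and Cyp2f2 at 47.8 and 32.1. The Cyp2f2 region was the weakest of the 4 in both libraries. Of 29 multiciliated genes, 3 were G9ai-only (Mcidas, Foxj1 and Ccdc39) and 3 vehicle-only (Myb, Sec14l3 and Dynlrb2). Mcidas and Foxj1 are regulators of the ciliated fate, as is Myb. Of 22 alveolar type 2 genes, Sftpd and Sftpa1 were G9ai-only, and Sftpc, S100g and Nkx2-1 vehicle-only.

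Markers of cells that the gate should remove were short lists, to be read beside the 6.04% and 3.1% of all genes. None of 20 endothelial genes, 25 leukocyte genes or 5 sort marker genes had a gene-end region on either side, nor did any of 22 alveolar type 1 genes. At the shares of all genes, lists of this length would hold few members, so these absences say little about the gate. Of 22 mesenchymal genes, Tagln and Vim had G9ai-only regions (9.09%), 2 of them at Vim. Msln was the 1 of 6 mesothelial genes with one (16.7%). These were members although the gate required Epcam. Both shares are above the 6.04% of all genes but rest on 2 and 1 genes, so these presences also say little about the gate. At Vim, 1 of the regions, at a mean percentile of 17.1, had the opposite side in both other populations. Whether other cells contributed the mesenchymal and mesothelial regions was not tested. Basal genes had 1 of 16, the vehicle-only region at Aqp3. Neuroendocrine genes had Uchl1 and Scg5 with G9ai and Syp with vehicle. Absence from these lists does not show closed chromatin, since regions open in both arms are not listed. Of 26 genes of H3K9 and DNA methylation, Cbx5, which encodes heterochromatin protein 1 alpha, had a G9ai-only region, and Kdm3b and Kdm7a vehicle-only ones. The Cbx5 region also covered the start of Hnrnpa1. It was listed in CD24high G9ai replicates 2 and 3 and in CD24neg vehicle replicate 3. The imprinted genes Igf2r and Grb10 (G9ai-only) and Phlda2 (vehicle-only) and the germline gene Tex14 (G9ai-only) were also members.

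Where a gene had regions of both sides, these were usually neighbours at the same end. Of the 72 such genes, 57 had both at 1 end, the median gap was 477 bp (70 to 216427 bp), and 36 gaps were under 500 bp. At Slc24a3, a sodium-calcium exchanger gene, the gap was 70 bp. At Vdr the G9ai-only region was centred at -15.5 bp from the start and the vehicle-only region 884 bp into the gene. At Kmt2a both lay upstream, at -874 bp (G9ai-only) and -206 bp (vehicle-only). Of the 40 genes with both regions at a start, the vehicle-only region was the farther downstream in 26 and the G9ai-only region in 14. The G9ai-only region was the nearer to the start in 12. Some of the 40 genes share the same regions, as do Ampd2, Gm12500 and Gnat2, and Dpm1 and Mocs3, so they are not 40 separate pairs.

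Several regions of 1 side were found at 79 of the 1322 genes with a G9ai-only region (5.98%) and at 12 of the 679 with a vehicle-only region (1.77%). The G9ai side has more regions in all, and the part of that in these shares was not tested. Agbl5, a tubulin-trimming peptidase gene, and Hexa, a lysosomal hexosaminidase gene, had 3 each. Further G9ai examples were E2f2, Rnf213, Hspa1a, Tgfb3, P2rx7 and Vim. The 12 vehicle genes were Bmi1 and its neighbour Commd3, Dmxl2, Gab2, Gnb1, Klf6, Klhl7, Polr2a, Rapgef1, Socs1, Tdrd3 and Vps37a. Bmi1 encodes a Polycomb subunit and Socs1 an inhibitor of cytokine signalling.

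Libraries of the other populations were not used to choose the members, so they give a separate readout. Most members were in none of those 6 lists, 817 of the G9ai-only (67.4%) and 403 of the vehicle-only members (65.4%), beside 71.6% and 68.2% of the regions away from gene ends. Of the G9ai-only members, 7.58% and 7.50% overlapped a peak of CD24neg G9ai replicates 2 and 3, and 9.73% one of CD24neg vehicle replicate 3. For vehicle-only members these shares were 6.66%, 6.82% and 11.9%. In CD24high, the G9ai-only members overlapped the G9ai lists at 5.94% and 6.18% and the vehicle list at 14.7%, and the vehicle-only members at 6.98%, 6.82% and 14.4%. The vehicle lists of both populations are longer (8870 and 12985 peaks against 2798 to 4173), and overlapped more members of either side. Away from gene ends, the G9ai-only regions overlapped the CD24neg lists at 5.52%, 5.59% and 8.59% and the CD24high lists at 4.13%, 4.14% and 13.8% (G9ai replicates 2 and 3, then vehicle). The vehicle-only regions there did so at 6.1%, 6.16% and 10% and at 3.13%, 3.13% and 17.3%. The shares of members were above those of regions elsewhere on both sides in all of these lists except CD24high vehicle replicate 3, where this held for G9ai-only members and not for vehicle-only members (14.4% against 17.3%). These differences were not tested.

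These libraries cannot decide whether a member's side carried over to the other populations. Few members were listed in both arms there (G9ai-only and vehicle-only members: 1 and 2 in CD24neg, 5 and 1 in CD24high). Regions open in both arms are thus largely missing from those lists too. The difference between sides (G9ai-only minus vehicle-only) changed from the vehicle library to the G9ai libraries by 2.93 percentage points in CD24neg and -1.07 points in CD24high, a mean of 0.931. An exact two-sided permutation of the arm labels within population gave p = 0.556. Its 9 arrangements allow 0.111 at the least, so it could not reach 0.05 for a difference of any size. The G9ai lists of a population are again nearly the same regions. For regions away from gene ends the mean was 2.67 (exact permutation p = 0.111, the smallest possible). With 1 vehicle library per population, neither population has a replicate check on that arm.

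**Figure D4:**
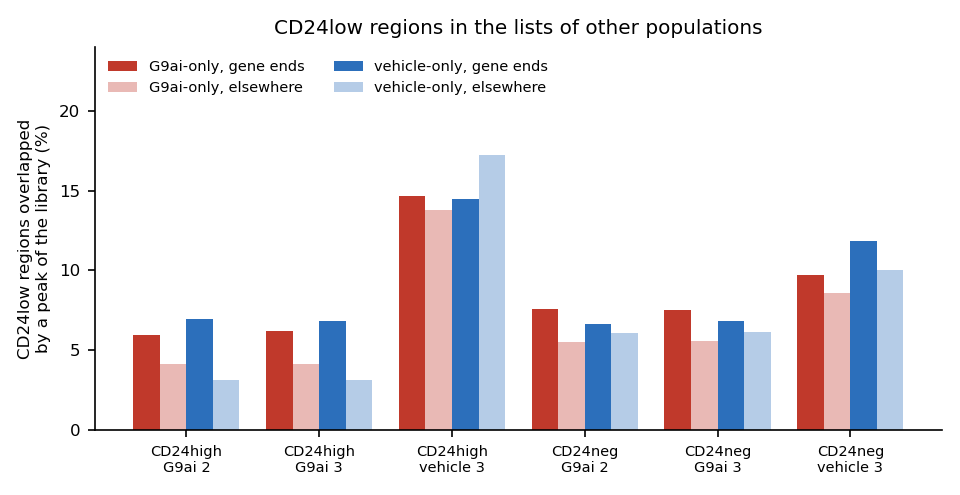
Percentage of CD24low regions overlapped by a peak of each of 6 libraries of the other populations, for regions at gene ends (solid bars) and elsewhere (pale bars), G9ai-only in red and vehicle-only in blue. The vehicle lists overlap more regions of both sides than the G9ai lists do, reaching 14.7% of the gene-end G9ai-only regions in CD24high.

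A few members had the same side in every population. They were 10 G9ai-only members (0.824%) and 15 vehicle-only members (2.44%), beside 0.185% and 2.39% of the regions away from gene ends. The G9ai-only ones include those at Mrpl38, Dis3l (a cytoplasmic exosome nuclease), Fbxo11, Hexa, Ppm1b, Uba1 (the ubiquitin-activating enzyme) and Eif3b. The vehicle-only ones include Ctc1 (a telomere maintenance factor), Polr2a, Psmd1, Psmd11, Srsf4, Pex13, Pak1 and Kat2a. Another 24 G9ai-only members (1.98%) and 2 vehicle-only members (0.325%, Pdpk1 and Nup85) had the opposite side in both other populations, beside 1.71% and 0.425% of regions elsewhere. None of these shares was tested. Lamb2, Spint2 and a second Dis3l region are among the 24. Dis3l therefore carried 2 nearby regions, at chr9:64341878-64342065 and chr9:64341212-64341312, with opposite patterns in the other populations. These genes were taken as the whole set of such members or from it after the values were seen.

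The promoter windows touched by members were richer in CpG than promoters as a whole. RefSeq windows of 300 bases (250 before and 50 after the start) were matched for 17492 protein-coding genes, of which 403 held a G9ai-only and 249 a vehicle-only region. The median GC content was 59.7% on the G9ai side, 63.3% on the vehicle side and 56.3% in all windows, and the median CpG number 20, 22 and 13. Island-like composition (GC of at least 50% and a CpG observed to expected ratio of at least 0.6) was found in 64.3%, 66.3% and 45.2%. Both sides were above all windows on each of these measures. These are descriptions of windows chosen by the regions, with no test.

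Motif letters were counted in the same windows. The GC box GGGCGG was in 61.0% of G9ai-side windows, 68.3% of vehicle-side windows and 45.9% of all windows, counted on both strands, but in 76.8% of all island-like windows. CCAAT was in 27.05%, 24.1% and 39.2% (37.4% of island-like windows). The ETS letters CCGGAAG were in 18.4%, 12.4% and 11.8% (20.3% of all island-like windows), and the CRE letters TGACGTCA in 3.47%, 0.803% and 2.26%, that is 14 and 2 windows. The NFI letters TTGGCA, which can overlap the reverse strand of CCAAT, was in 12.7%, 8.03% and 13.4%, the TATA box TATAAA in 7.20%, 6.83% and 13.4% (4.78% of island-like windows), and the YY1 letters AAGATGGCG in 4.22%, 2.41% and 1.91%. Cbx8 is one of the 14 windows with the CRE letters, and Sde2, in the vehicle set, has both an E-box and an ETS match. The NRF1 letters GCGCATGC, which match on both strands in Smad5, were in 4.22%, 5.22% and 3.59%. E-box letters CACGTG were in 12.9%, 13.3% and 7.80%, AP-1 letters TGANTCA in 4.71%, 4.82% and 7.04%, FOX letters TGTTTAC in 3.97%, 3.21% and 3.00% and ZBTB33 letters TCTCGCGA in 0.496%, 0.803% and 1.49%. In all island-like windows the shares were 3.86% for the CRE, 9.30% for NFI, 3.63% for YY1 and 6.57% for NRF1. For the E-box, AP-1, FOX and ZBTB33 they were 11.6%, 3.17%, 2.00% and 2.96%. The NRF1 and CRE shares of both sides were below these, but the sets are unlike. Only 64.3% of G9ai-side and 66.3% of vehicle-side windows were island-like, and no set matched for composition was compared.

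**Figure D5:**
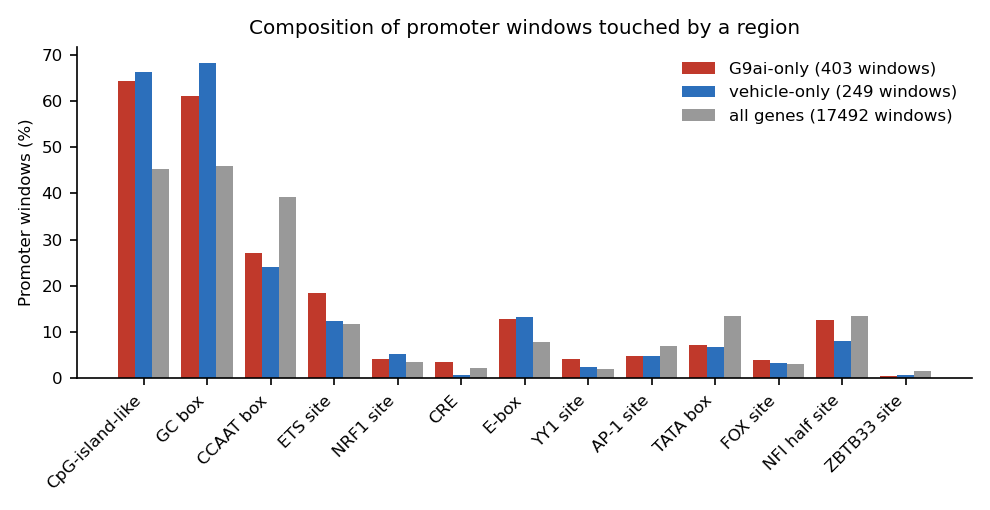
Percentage of 300-base promoter windows with island-like composition or with a match to each of 12 motifs on either strand, for windows touched by a G9ai-only region (red, 403), by a vehicle-only region (blue, 249) and for all genes with a window (grey, 17492). Both sides are above all genes for island-like composition and the GC box and below for CCAAT and the TATA box. In all island-like windows the GC box and TATA box shares were 76.8% and 4.78%. Only 64.3% of G9ai-side and 66.3% of vehicle-side windows were island-like, so those shares come from an unlike set.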

How the data were processed

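ATAC-seq peaks were called per library with MACS2 after Bowtie2 alignment to mm10, per the submitters' processing notes and the peak names; read shifting, thresholds and how the treatment-specific lists were made are not stated in the sources used. The score is the authors' deposited peak score, on a scale not stated, and was used only as a percentile within its list. Repeated lines (47 to 472 per file) were dropped; starts are given 1-based. Peaks were merged, sided and linked to RefSeq gene ends with Python 3.11.15, pandas 2.3.3 and scipy 1.17.1, and drawn with matplotlib 3.10.9. Strand came from the RefSeq promoter table (17492 of 21887 genes); the other genes were not oriented. Planted regions in simulated lists were all recovered on the right side. Library shares were compared by exact permutation, two-sided, which cannot bear on replication within CD24low because replicate lists were matched before deposit; no test was run on gene lists.

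The members and the gene lists were chosen with earlier results of these data known. Genes are named by rule: 10 per side and up to 4 per list and side by mean score percentile, genes with regions of both sides, and genes with 2 or more regions of 1 side; others are said to be chosen after their values. Lists built from symbol patterns catch some unrelated genes. Depth is unknown. Alternatives were other windows, the higher-scoring 50% of each list, another overlap, the region's middle, repeated lines kept and each library left out. Some genes that the naming rule selects are not reported here.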

Additional observations from a re-analysis of the deposited data

Results flagged for a closer look

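The arms ran opposite ways in different populations. The share of listed peaks at a gene end was lower with G9ai in CD24low (-7.55 percentage points, both G9ai libraries below both vehicle libraries) and higher in CD24neg (2.88) and CD24high (8.25), where both G9ai libraries were above the 1 vehicle library. The share of gene-end peaks at a start ran the same ways, -4.50, 3.96 and 6.55 points. Shorter lists went with a higher gene-end share in all 3 populations: vehicle in CD24low (2552 and 2558 peaks against 7361 and 7379) and G9ai in CD24neg (4149 and 4173 against 8870) and CD24high (2798 and 2817 against 12985). The part of list length in these shares was not tested. The overlap of G9ai-only against vehicle-only members was also opposite, at 2.93 points in CD24neg and -1.07 in CD24high. The differences between populations were not tested, and lists of 1 arm hold nearly the same regions.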

How the results depend on the processing

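No result changed direction, apart from list leans named here. Keeping the higher-scoring 50% of each list left 353 G9ai-only and 208 vehicle-only gene-end regions. Under this setting a region needs a peak in the higher-scoring 50% of both lists of its arm. Leaving out 1 library in turn gave -7.73 to -7.36 points for the gene-end share, -4.62 to -4.37 for the start share, -10.2 to -9.75 for the share within 100 bp of a start, 1213 to 1247 and 616 to 626 regions, 16 to 17 lists with a lower G9ai part than all genes, and 0.335 to 1.29 points for the overlap in other populations; replicate lists hold nearly the same regions, so these narrow ranges show no stability between mice. With the replicate block, the 3 library shares stayed at -7.55, -4.50 and -9.99 points by construction (exact p = 0.5, the smallest that 2 pairs allow, and not read as a test); whether the numbers pair mice is not stated, and 2 pairs cannot show it. The alternatives to the share within 100 bp were added after seeing the data. Of 13 lists checked in 9 alternatives, 10 kept the sign of their difference from all genes, of which 3 moved in size in the higher-scoring 50% (lipid -47.3, kinase -27.1 and mitochondrial import 36.1 points); splicing (-3.94) and zinc finger genes (-5.12) turned to the vehicle side in the higher-scoring 50%, and the ubiquitin list, at -0.11 points, kept its sign in 4 of 9. Unknown depth limits every absence from a list.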
